A study of Mus musculus with 5 samples.

Results

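Imprinted genes are expressed mainly from the copy inherited from a single parent, and 43 of them were read here for H3K27me3, the trimethylated form of lysine 27 on histone H3. Polycomb repressive complex 2 writes this mark at genes that are kept off. The 43 genes were chosen by name, with earlier results of these data known. They come from 21728 protein-coding genes of GENCODE M21 on the autosomes and the X chromosome. They lie on 10 chromosomes in 17 imprinted domains, of which 9 hold several of the genes and 8 a single gene, and 20 of them are on chromosome 7. By textbook knowledge 21 are expressed from the paternal copy, 18 from the maternal copy and 4 by isoform, by tissue or with disputed status. The ChIP-seq libraries were made from Kdm6b-cKO cells (replicates 3 and 4) and from WT cells (replicates 7 and 9), all of late embryonic skin of mice on a C57BL/6 background. In Kdm6b-cKO embryos a Twist2-Cre (Dermo1-Cre), active in the dermal mesenchyme, deletes floxed alleles of Kdm6b, which encodes a demethylase of H3K27me3. Dermal preparations were expanded in AmnioMAX medium, so the cells had grown in culture before fixation, and the labels give a sort for GFP for WT cells too. The sources used here do not say whether replicates came from separate embryos, so a p-value measures only the spread between these libraries.

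Imprinted domains have a control region whose DNA is methylated on one parental copy only, and this difference sets which copy is read. At several domains the silent copy also carries H3K27me3, and at the Kcnq1 and Igf2r domains a long noncoding RNA made from the paternal copy is known from mouse placenta to bring Polycomb complexes to neighbouring genes. The list holds ligands and receptors of growth signalling, brakes on that signalling, transporters, transcription factors and ubiquitin ligases. The peaks are not divided by parental copy, so a covered promoter can carry the mark on either copy or on both. More cells with the mark and more of it per cell cannot be told apart either.

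The libraries differed as a whole. On the autosomes and the X chromosome, peaks covered 148.3 and 123.9 Mb in the Kdm6b-cKO libraries, against 91.4 and 61.5 Mb in the WT libraries, with WT replicate 9 the lowest. Any gain at a single gene stands beside that difference, whose part in it was not tested. Libraries were subsampled to a like read depth per the study's methods, but no read counts come with the peaks, so the number of reads under any of them is unknown. Promoters of 7 dermal fibroblast markers were unmarked in all 4 libraries, while 3 of 3 muscle, 4 of 6 keratinocyte, 1 of 3 endothelial, 1 of 3 immune and 1 of 3 melanocyte marker promoters were marked in at least 1 library. A repressive mark does not measure cell content, so this checks the label only in part.

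A promoter here is the 6 kb from 3 kb before to 3 kb after the transcription start site (TSS) at the gene's 5′ end, and it counts as marked where peaks cover at least 500 bp. Of the 43 imprinted promoters, 18 were marked in at least 1 library, or 41.9%, beside 28.8% of all protein-coding promoters. Marked in all 4 libraries were 12, which is 12 of the 18, beside 52.7% of all promoters marked anywhere. Slc22a18 and Asb4 were marked in both Kdm6b-cKO libraries and neither WT library, beside 14.9% of marked promoters. Asb4 narrowly missed the mark in WT replicate 7, with 492 bp. Mkrn3 alone was marked in both WT libraries and neither Kdm6b-cKO library, beside 0.240%. Cdkn1c, Magel2 and Trappc9 were marked in other combinations, and 25 promoters were unmarked throughout. Both Kdm6b-cKO values lay above both WT values at 7 of the 18, beside 49.0% of all marked promoters, and below them at 1, Mkrn3, beside 2.42%.

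**Figure D1:**
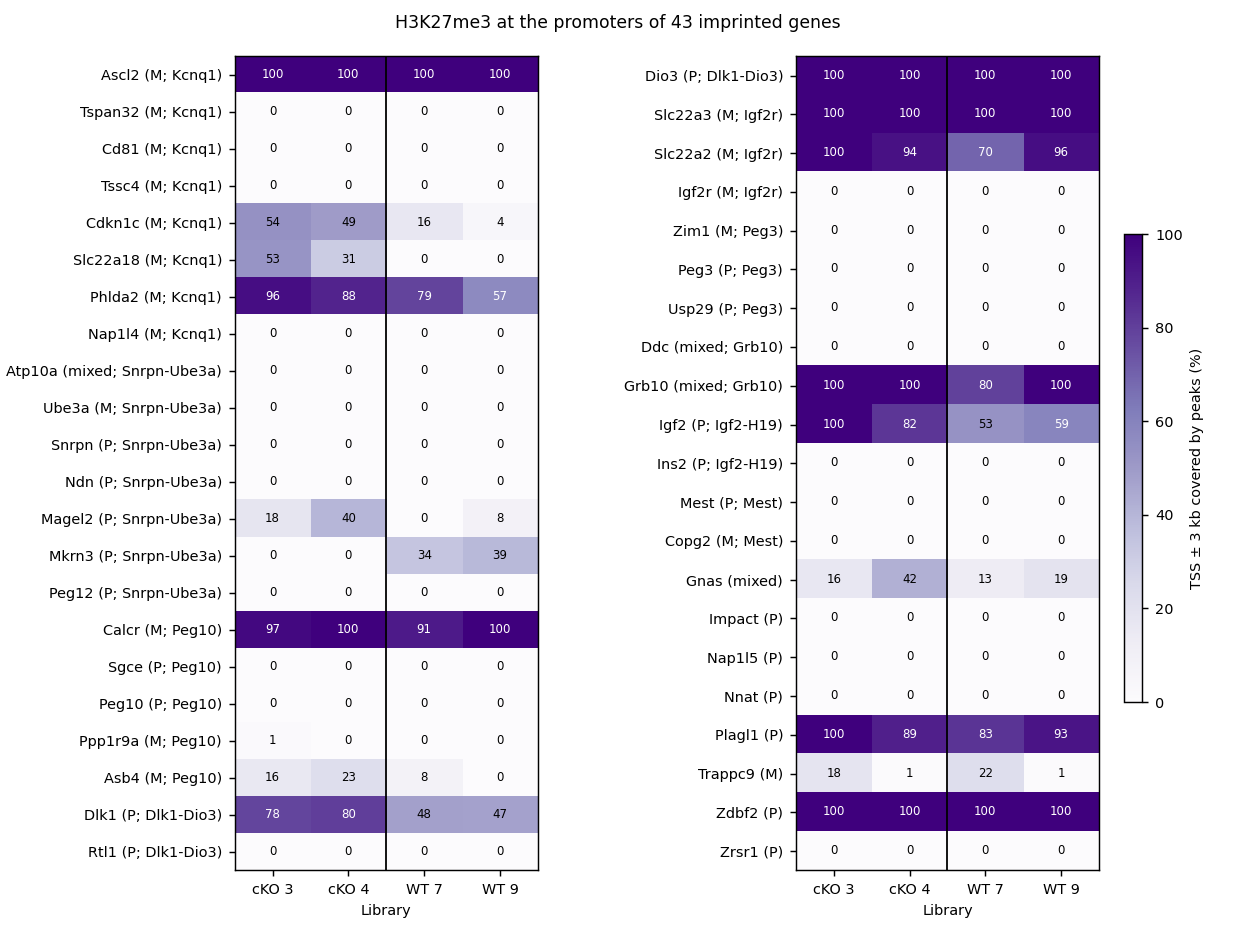
Percent of TSS ± 3 kb covered by H3K27me3 peaks for each of the 43 imprinted genes (rows, with the expressed parental copy and, where it holds several genes, the domain) in 2 Kdm6b-cKO and 2 WT libraries (columns). Ascl2, Dio3, Slc22a3 and Zdbf2 stand at 100% in every library, Mkrn3 has values in the WT libraries only, and 25 rows stay under the 500 bp that mark a promoter.

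Promoter sequence is shown for 6 starts that stand for these patterns, with every CG in capitals. Each runs 5′ to 3′ on the strand of the gene over 300 bases around a RefSeq start, most of them before it, on build GRCm38.p6, the assembly behind mm10. Dlk1 is the promoter called higher, Slc22a18 one marked in Kdm6b-cKO only, Mkrn3 the one called lower, Zdbf2 one covered throughout in all libraries, Plagl1 is shown at its bare downstream start, and Peg3 has no peak nearby.
Dlk1, chr12:109452573-109452872, plus strand: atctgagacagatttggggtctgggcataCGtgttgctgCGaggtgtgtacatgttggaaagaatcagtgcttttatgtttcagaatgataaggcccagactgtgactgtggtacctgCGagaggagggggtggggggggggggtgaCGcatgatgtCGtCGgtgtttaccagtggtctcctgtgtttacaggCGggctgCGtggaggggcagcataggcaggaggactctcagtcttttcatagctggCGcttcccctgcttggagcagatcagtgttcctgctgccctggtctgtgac
Slc22a18, chr7:143473539-143473838, plus strand: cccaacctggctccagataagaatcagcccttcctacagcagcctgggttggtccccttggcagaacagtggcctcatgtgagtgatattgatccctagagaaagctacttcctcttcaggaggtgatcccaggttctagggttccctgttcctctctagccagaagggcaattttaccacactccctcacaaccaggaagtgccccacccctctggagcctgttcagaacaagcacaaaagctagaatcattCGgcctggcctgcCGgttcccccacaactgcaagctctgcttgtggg
Mkrn3, chr7:62420104-62420403, minus strand: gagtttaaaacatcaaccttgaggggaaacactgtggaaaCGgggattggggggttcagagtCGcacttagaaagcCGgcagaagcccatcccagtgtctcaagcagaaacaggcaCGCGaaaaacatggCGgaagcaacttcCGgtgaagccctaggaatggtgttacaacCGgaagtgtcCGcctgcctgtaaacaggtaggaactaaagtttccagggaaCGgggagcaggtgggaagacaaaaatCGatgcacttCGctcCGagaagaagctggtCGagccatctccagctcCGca
Zdbf2, chr1:63273019-63273318, plus strand: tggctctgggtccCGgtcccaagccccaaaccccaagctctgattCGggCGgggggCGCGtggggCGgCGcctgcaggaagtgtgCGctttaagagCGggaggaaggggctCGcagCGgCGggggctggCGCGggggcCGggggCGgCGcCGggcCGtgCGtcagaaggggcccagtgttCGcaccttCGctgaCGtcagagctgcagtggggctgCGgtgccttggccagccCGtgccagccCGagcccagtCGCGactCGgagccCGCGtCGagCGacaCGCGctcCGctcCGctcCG
Plagl1, chr10:13090582-13090881, plus strand: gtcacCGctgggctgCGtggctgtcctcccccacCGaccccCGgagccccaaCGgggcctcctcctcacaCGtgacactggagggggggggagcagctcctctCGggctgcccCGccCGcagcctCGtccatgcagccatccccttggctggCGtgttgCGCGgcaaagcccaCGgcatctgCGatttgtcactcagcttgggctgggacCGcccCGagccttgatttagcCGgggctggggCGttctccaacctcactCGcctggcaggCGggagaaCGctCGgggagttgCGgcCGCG
Peg3, chr7:6730370-6730669, minus strand: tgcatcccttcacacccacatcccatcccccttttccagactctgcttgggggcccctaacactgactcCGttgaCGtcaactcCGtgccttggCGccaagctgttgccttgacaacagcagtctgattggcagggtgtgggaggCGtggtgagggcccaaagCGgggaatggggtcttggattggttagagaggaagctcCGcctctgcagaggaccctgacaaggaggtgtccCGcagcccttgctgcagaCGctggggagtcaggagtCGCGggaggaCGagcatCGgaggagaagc

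These stretches hold 9 CG in Dlk1, 2 in Slc22a18, 15 in Mkrn3, 38 in Zdbf2, 26 in Plagl1 and 13 in Peg3. Peaks covered all 300 bases of the Dlk1 and Zdbf2 stretches in every library. They covered 300 and 121 bases of the Slc22a18 stretch in Kdm6b-cKO replicates 3 and 4, against 0 in both WT libraries. The Mkrn3, Plagl1 and Peg3 stretches were touched by no peak. RefSeq gave 52 promoters for 35 of the 43 genes, with a median of 15 CG, beside 7 over 32619 promoters of all genes. The 32 imprinted promoters that no peak touched had a median of 17 CG, and the 14 touched in all 4 libraries 11.5, so covered and bare promoters both included sequences rich in CG. The motif TGCCGC, which contains a CG and is the one bound by ZFP57, a protein that protects imprinting control regions, was searched on both strands. It occurred in 13 of the 52 promoters, or 25%, beside 11.7% of all promoters, and some of the 52 overlap each other.

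Across all 6251 promoters marked in at least 1 library, limma on the covered percent called 7.93% higher and 0.0960% lower in Kdm6b-cKO, after Benjamini-Hochberg adjustment over all of them. Of the 18 imprinted promoters among them, 1 was called higher (Dlk1) and 1 lower (Mkrn3). Their median difference was 11.6 points, beside 11.7 points over all 6251, and 12 of the 18 differences were positive. Within 25 kb of the TSS, limma on the covered length called 7.69% of 11829 genes higher and 0% lower, with 17 lower at an unadjusted p under 0.05. Of the 43 genes, 27 had at least 500 bp covered there in at least 1 library, or 27 of 43 beside 54.4% of all genes. Called higher were 3, Dlk1, Igf2 and Cdkn1c. The median difference of the 27 was 3.26 kb, beside 2.41 kb over all genes tested, and 22 of the 27 were positive. Neither WT value reached either Kdm6b-cKO value at 16 of the 27, beside 65.3% of all genes, and the reverse held at 3, beside 1.67%. Of these 3 (Zdbf2, Mkrn3 and Magel2), Mkrn3 and Magel2 have windows that share 6.87 kb. None of these calls, at either width, held for any gene in the fit without WT replicate 9. The median difference over all genes tested was then 8.32 points at the promoter and 1.72 kb within 25 kb. The wide calls were also all lost without Kdm6b-cKO replicate 3 and without Kdm6b-cKO replicate 4, with median differences of 2.16 and 3.155 kb. Such fits leave 1 library in a group, so a weaker test and a changed difference cannot be told apart. With values centred on each library's mean, the wide calls of all genes were 1430 higher and 407 lower, against 910 and 0 uncentred. Those of the imprinted genes were 7 higher and 3 lower (Ppp1r9a, Mkrn3 and Zdbf2). Centring takes the same amount off every gene's difference, 4.06 kb here, the mean over all genes tested. A lower call after centring is therefore relative to that mean and need not be a loss. Uncentred, the Ppp1r9a difference was −0.91 kb, with overlap between the groups.

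Dlk1 (chr12:109452823-109463336, mm10, plus strand) encodes a membrane protein of the Notch ligand type that holds back fat cell formation, and it is expressed from the paternal copy. Its promoter was covered over 78.4% and 80.5% in the Kdm6b-cKO libraries, against 47.8% and 47.4% in the WT libraries. The groups did not overlap, and the libraries of a genotype lay close together. The difference was 31.8 ± 1.16 points (SE, limma, adjusted p = 0.018). The peak at the TSS began 752 and 761 bp before it in the Kdm6b-cKO libraries, against 753 and 738 bp before it in WT, so its upstream edge was shared. It ended 5614 and 7498 bp after the TSS in the Kdm6b-cKO libraries, against 2116 and 2106 bp in the WT libraries. Within 25 kb, 12.7 and 12.8 kb were covered in the Kdm6b-cKO libraries, against 5.29 and 4.26 kb in the WT libraries, a difference of 8.01 ± 0.749 kb (SE, adjusted p = 0.035). The promoter call was lost when each library kept as many of its strongest peaks as the shortest list holds (adjusted p = 0.272), with peaks of −log10 q of at least 3 (0.280), with all genes in the fit (0.0535), after centring (0.255), without WT replicate 7 (0.072) and without WT replicate 9 (0.106). With the strongest peaks up to an equal covered length the difference was 14.98 points and still passed, and within TSS ± 1 kb it was 0.55 points (adjusted p = 0.648). The call within 25 kb held only with a minimum of 1500 bp and without WT replicate 7, and its adjusted p lay between 0.0662 and 0.149 under the other alternatives.

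Dlk1 shares the domain on chromosome 12 with Rtl1, a gene derived from a retrotransposon, and Dio3, a deiodinase that inactivates thyroid hormone. The Dio3 promoter was covered over 100% in every library, and its peak was 33.3 and 34.1 kb long in the Kdm6b-cKO libraries, against 29.6 and 26.2 kb long in the WT libraries. Within 25 kb of Dio3, 47.0 and 47.2 kb were covered in the Kdm6b-cKO libraries, against 39.6 and 33.5 kb in the WT libraries, and this did not pass the test (adjusted p = 0.085). The Rtl1 promoter was unmarked, and 2.39 and 5.09 kb lay within 25 kb in the Kdm6b-cKO libraries, against 3.12 and 0.858 kb in the WT libraries, with overlap between the groups. Over the 876 kb from Dlk1 to Dio3, with 25 kb on either side, peaks covered 188.4 and 182.0 kb in the Kdm6b-cKO libraries, against 117.7 and 83.0 kb in the WT libraries.

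Igf2 (chr7:142650766-142666816, minus strand), the fetal growth factor expressed from the paternal copy, carried the mark at each of its 9 annotated starts in all 4 libraries. At the gene's 5′ end 100% and 82.5% of the promoter were covered in the Kdm6b-cKO libraries, against 53.2% and 58.9% in the WT libraries (adjusted p = 0.148). At the 4 starts between 4.95 and 7.33 kb downstream the covered share was 100% in every library. The peak there measured 21.8 and 18.9 kb in the Kdm6b-cKO libraries, against 11.9 and 11.8 kb in the WT libraries, and it reached farther than the WT peak at both ends. Within 25 kb of the 5′ end, 26.7 and 27.9 kb were covered in the Kdm6b-cKO libraries, against 14.2 and 13.4 kb in the WT libraries, which is 27.3 ± 0.852 against 13.8 ± 0.612 kb (SD, n = 2 each). The groups did not overlap, and the difference of 13.5 ± 0.852 kb passed the test (SE, limma, adjusted p = 0.028). This call was lost with the strongest peaks up to an equal covered length (adjusted p = 0.065), with all genes in the fit (0.0777) and without Kdm6b-cKO replicate 3 (0.137), Kdm6b-cKO replicate 4 (0.0984) or WT replicate 9 (0.111). Ins2, an insulin gene beside Igf2, was unmarked at the 5′ end of its longest annotated transcript. At the cluster of 7 starts 63.7 to 63.8 kb downstream of that end, up to 4318 and 5218 bp were covered in the Kdm6b-cKO libraries, against 1151 and 754 bp in the WT libraries.

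**Figure D2:**
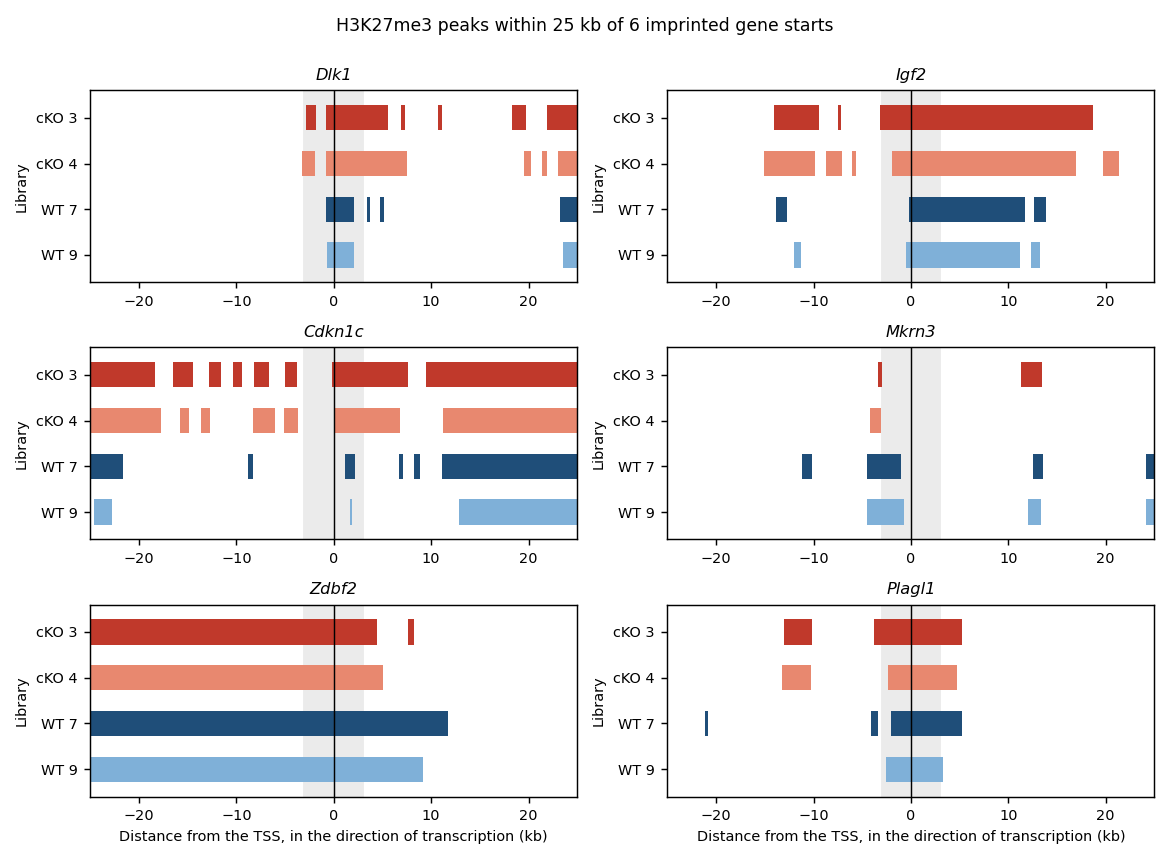
H3K27me3 peaks within 25 kb of the TSS of 6 imprinted genes, with distance in kb along the direction of transcription and each library as a row, Kdm6b-cKO above WT. Shading marks TSS ± 3 kb. The Dlk1 and Igf2 peaks reach farther in both Kdm6b-cKO libraries, the Zdbf2 peak ends farther downstream in both WT libraries, and at Mkrn3 the Kdm6b-cKO peaks end just outside the shaded window.

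Other genes of growth signalling differed in whether they carried the mark. Igf2r, which clears IGF2 from the cell surface and is expressed from the maternal copy, had no peak within 25 kb in any library. Grb10, an adaptor that restrains insulin and IGF signalling, was covered over 100% in both Kdm6b-cKO libraries and over 79.6% and 100% in the WT libraries. In the 50 kb around Grb10, 25.6 and 20.1 kb were covered in the Kdm6b-cKO libraries, against 17.3 and 15.9 kb in the WT libraries (adjusted p = 0.160). Ddc, the decarboxylase gene next to Grb10, had 394 bp within 25 kb in Kdm6b-cKO replicate 4 and none elsewhere. Plagl1, a zinc finger transcription factor that restrains the cell cycle, had 100% and 89.5% of its promoter covered in the Kdm6b-cKO libraries, against 83.3% and 93.3% in the WT libraries, so its groups overlapped.

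The Kcnq1 domain on chromosome 7 holds 8 of the genes, all listed as expressed from the maternal copy, which was not measured in these cells. Ascl2, a transcription factor of the trophoblast, was covered over 100% at its promoter in every library, and its peak was 19.04 and 16.5 kb long in the Kdm6b-cKO libraries against 11.1 and 9.38 kb in the WT libraries. In the 50 kb around it, 38.9 and 35.4 kb were covered in the Kdm6b-cKO libraries, against 21.4 and 14.7 kb in the WT libraries (adjusted p = 0.053). Cdkn1c (chr7:143458339-143461050, minus strand), which encodes the cell cycle inhibitor p57, had 53.6% and 49.5% of its promoter covered in the Kdm6b-cKO libraries, against 16.3% and 4.03% in the WT libraries. The promoter difference of 41.3 ± 5.76 points missed the threshold (SE, limma, adjusted p = 0.078), and it passed with peaks of −log10 q of at least 3 (51.5 points, adjusted p = 0.0149) and in TSS ± 5 kb (57.4 points, 0.0415). The peak nearest its TSS was 7.80 and 6.77 kb long in the Kdm6b-cKO libraries, against 0.979 and 0.242 kb long in the WT libraries. In the 50 kb around Cdkn1c, 37.1 and 33.5 kb were covered in the Kdm6b-cKO libraries, against 19.7 and 14.3 kb in the WT libraries, and that difference of 18.3 ± 2.56 kb passed (SE, adjusted p = 0.048). That call was lost with an equal number of strongest peaks (adjusted p = 0.0523), an equal covered length (0.115), −log10 q of at least 3 (0.0595) or all genes in the fit (0.208), and without Kdm6b-cKO replicate 3 (0.237), Kdm6b-cKO replicate 4 (0.174) or WT replicate 9 (0.123). Slc22a18, a transporter of the same stretch, had 52.7% and 31.1% of its promoter covered in the Kdm6b-cKO libraries, against 0% in both WT libraries. This difference did not pass (limma, adjusted p = 0.145), while that in TSS ± 1 kb did (adjusted p = 0.0169). It was 31.1 points without Kdm6b-cKO replicate 3 and 52.7 points without Kdm6b-cKO replicate 4. Those fits see no spread between Kdm6b-cKO libraries, and both WT values are 0%, so they cannot test the difference. The Slc22a18 start lies 12.7 kb from that of Cdkn1c, and their 25 kb windows share 37.3 kb, so their wide values are not independent.

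Phlda2, a brake on placental growth, had 95.6% and 88.5% of its promoter covered in the Kdm6b-cKO libraries, against 78.6% and 56.8% in the WT libraries (adjusted p = 0.308). It lay in a peak of 26.5 and 26.7 kb in the Kdm6b-cKO libraries, against 5.44 and 3.66 kb in the WT libraries. Tspan32 and Tssc4 had unmarked promoters, and within 25 kb of Tspan32, a tetraspanin gene, 10.8 and 10.1 kb were covered in the Kdm6b-cKO libraries against 4.57 and 1.13 kb in the WT libraries (adjusted p = 0.069). Around Tssc4 the values were 4.29 and 4.21 kb in the Kdm6b-cKO libraries, against 1.11 and 0.873 kb in the WT libraries (adjusted p = 0.071). Cd81, another tetraspanin, and Nap1l4, a histone chaperone, had no peak within 25 kb. Over the domain of 629.8 kb, peaks covered 170.3 and 158.2 kb in the Kdm6b-cKO libraries, against 89.2 and 52.9 kb in the WT libraries, a ratio of means of 2.31 beside 1.78 for the genome. With the strongest peaks up to an equal covered length, the domain held 80.5 and 83.4 kb in the Kdm6b-cKO libraries. The WT libraries then held 69.8 and 52.9 kb, a ratio of means of 1.34. It was 1.08 over the 25 kb windows of all protein-coding genes, while the ratio of the genome is set to 1.00 by this cut. The WT libraries themselves differed widely here. With that equal length, the Kdm6b-cKO libraries lay above the WT libraries without overlap in 3 of the 9 domains that hold several of the genes (Dlk1-Dio3, Igf2r and Kcnq1), against 6 with all peaks. They lay below without overlap in 4 (Grb10, Mest, Peg10 and Snrpn-Ube3a), against 1 with all peaks, and Igf2-H19 overlapped. With all peaks, 65.3% of the 11829 genes tested within 25 kb also had Kdm6b-cKO higher without overlap, and 1.67% had it lower. Those windows hold single genes and are shorter than most of these domains. Whether the domain counts differ from those of other stretches of like length was not tested. At equal length WT replicate 9 kept all its peaks and the other libraries only their strongest, so the −log10 q needed differed by library.

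**Figure D3:**
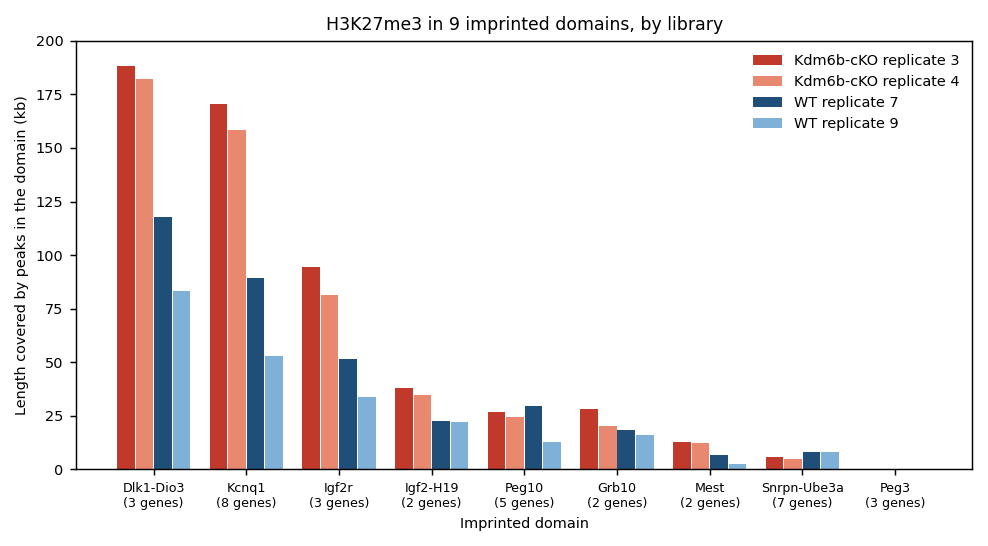
Length covered by H3K27me3 peaks, in kb, in the 9 imprinted domains that hold several of the genes, one bar per library with Kdm6b-cKO left of WT. A domain runs from 25 kb before its first to 25 kb after its last TSS. All peaks are counted. Both Kdm6b-cKO bars exceed both WT bars in 6 domains, or in 3 at equal covered length. Both Kdm6b-cKO bars are lower in Snrpn-Ube3a, the bars overlap in Peg10, and Peg3 has no peak. For scale, 65.3% of all genes tested within 25 kb had Kdm6b-cKO higher without overlap, and 1.67% had it lower.

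The Igf2r domain on chromosome 17 joined a bare gene and a pair of covered ones. Slc22a3, an organic cation transporter, was covered over 100% in all libraries, under peaks of 20.9 and 15.0 kb in the Kdm6b-cKO libraries, against 11.1 and 10.0 kb in the WT libraries. Its relative Slc22a2 had 100% and 94.2% of its promoter covered in the Kdm6b-cKO libraries, against 69.5% and 95.5% in the WT libraries, with overlap. Within 25 kb, 34.7 and 30.3 kb were covered at Slc22a3 and 32.4 and 23.7 kb at Slc22a2 in the Kdm6b-cKO libraries. The WT libraries had 21.3 and 12.2 kb at Slc22a3 and 15.3 and 11.4 kb at Slc22a2. Neither difference passed the test (adjusted p = 0.092 and 0.094). Over the domain 94.4 and 81.6 kb were covered in the Kdm6b-cKO libraries, against 51.6 and 33.8 kb in the WT libraries.

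On chromosome 7, the Snrpn-Ube3a domain stood apart by how little of it was covered. Peaks took up 5.82 and 4.79 kb of its 3858 kb windowed length in the Kdm6b-cKO libraries, against 8.24 and 7.94 kb in the WT libraries. Of its 7 genes, Snrpn, which encodes a splicing protein, Ndn (necdin), Peg12 and the ubiquitin ligase Ube3a had no peak within 25 kb. Atp10a, which encodes a lipid flippase, had 1.04 kb in Kdm6b-cKO replicate 3 only. Magel2, a regulator of ubiquitin ligases, had 17.9% and 40.2% of its promoter covered in the Kdm6b-cKO libraries, against 0% and 8.38% in the WT libraries (adjusted p = 0.315). Within 25 kb the order of its libraries was turned round, with 2.21 and 2.41 kb in the Kdm6b-cKO libraries, against 2.65 and 2.77 kb in the WT libraries. That difference of −0.396 ± 0.645 kb did not pass (SE, limma, adjusted p = 0.684). The Magel2 window shares 6.87 kb with that of Mkrn3, so their wide values are not independent.

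Mkrn3 (chr7:62417593-62420139, minus strand), a ubiquitin ligase that restrains the onset of puberty, was the imprinted gene with a lower call at its promoter. Peaks covered 0% of it in both Kdm6b-cKO libraries, against 33.6% and 39.0% in WT replicates 7 and 9. The difference of −36.3 ± 2.47 points (SE, limma, adjusted p = 0.031) was the 4th lowest of all 6251. The mark was not absent from Kdm6b-cKO: peaks of 402 and 1211 bp lay there, ending 3003 and 3038 bp before the TSS and so just outside the window. The WT peaks were 3570 and 3826 bp long and ended 983 and 662 bp before the TSS. With TSS ± 5 kb, which takes in the Kdm6b-cKO peaks, the difference was −28.9 points and did not pass (adjusted p = 0.064), and within TSS ± 1 kb Mkrn3 was not tested, since no library reached 500 bp. Within 25 kb, 2.57 and 1.21 kb were covered in the Kdm6b-cKO libraries, against 6.35 and 6.01 kb in the WT libraries (adjusted p = 0.069). The promoter call was also lost with the strongest peaks up to an equal covered length (−19.5 points, adjusted p = 0.621), with all genes in the fit (0.159), without Kdm6b-cKO replicate 3 (0.130), without Kdm6b-cKO replicate 4 (0.121) and without WT replicate 9 (0.075).

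Zdbf2 (chr1:63273265-63314576, plus strand), a zinc finger gene expressed from the paternal copy, lay under the longest peak over any of the 43 promoters in every library. Its promoter was covered over 100% in all 4. The peak was 36.0 and 36.7 kb long in the Kdm6b-cKO libraries, against 42.9 and 41.1 kb long in the WT libraries. It began 31.6 kb before the TSS in both Kdm6b-cKO libraries and 31.2 and 31.9 kb before it in WT. It ended 4438 and 5096 bp after the TSS in the Kdm6b-cKO libraries, against 11733 and 9158 bp in the WT libraries. Within 25 kb, 30.0 and 30.1 kb were covered in the Kdm6b-cKO libraries, against 36.7 and 34.2 kb in the WT libraries, a difference of −5.38 ± 1.17 kb that did not pass the test (SE, adjusted p = 0.080). Another annotated start, 17.5 kb downstream, was bare in every library.

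**Figure D4:**
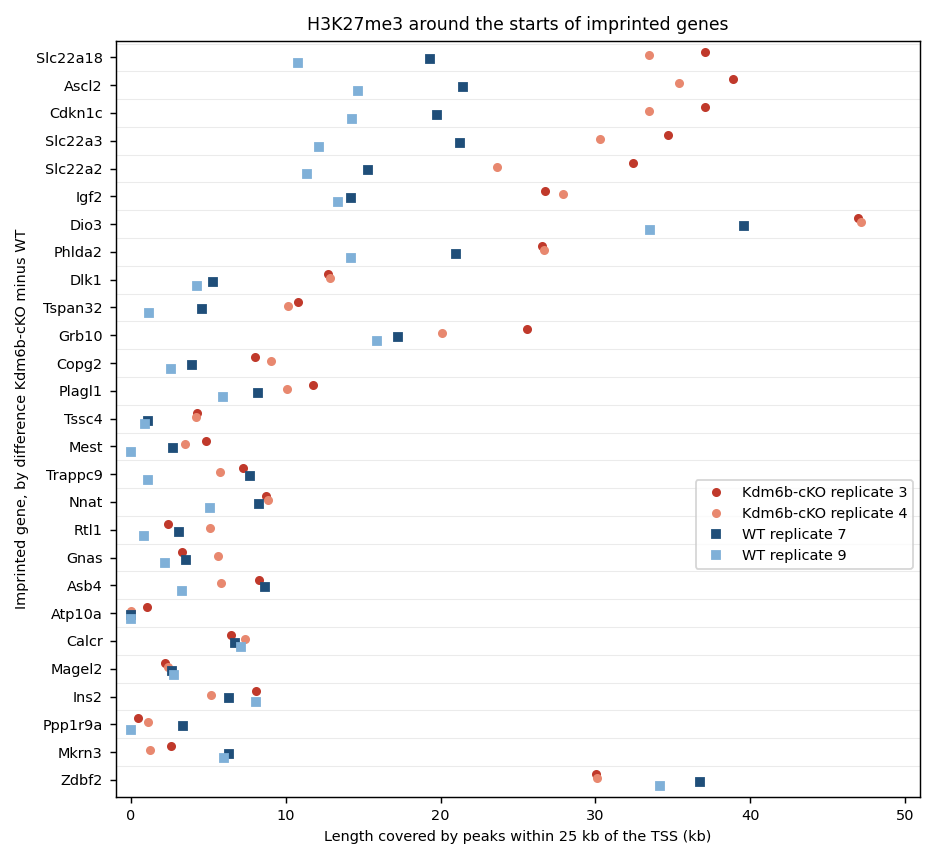
Length covered by H3K27me3 peaks within 25 kb of the TSS, in kb, for the 27 imprinted genes with at least 500 bp there, one point per library and genes ordered by Kdm6b-cKO minus WT. Kdm6b-cKO libraries (circles) lie right of WT libraries (squares) in 16 genes and left of them in Zdbf2, Mkrn3 and Magel2.

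In the Peg10 domain on chromosome 6, the genes at the ends carried the mark and Sgce and Peg10 between them did not. Calcr, the calcitonin receptor, had 96.9% and 100% of its promoter covered in the Kdm6b-cKO libraries, against 91.4% and 100% in the WT libraries. Within 25 kb of Calcr, 6.49 and 7.35 kb were covered in the Kdm6b-cKO libraries, against 6.69 and 7.08 kb in the WT libraries, a difference of 0.04 ± 0.733 kb (SE). Asb4, a SOCS box protein gene at the other end, had 15.7% and 22.6% of its promoter covered in the Kdm6b-cKO libraries, against 8.20% and 0% in the WT libraries (adjusted p = 0.219). In WT replicate 7 that was 492 bp, just under the 500 bp that mark a promoter. The second Asb4 start, 7.04 kb downstream, was marked in all 4 libraries. There 1428 and 672 bp were covered in the Kdm6b-cKO libraries, against 3290 and 1105 bp in the WT libraries. Sgce, a sarcoglycan gene, and Peg10, derived from a retrotransposon, start 99 bp apart and had no peak within 25 kb. Ppp1r9a, which encodes neurabin, had at most 74 bp at its promoter, and its wide values overlapped. Over the domain, 26.9 and 24.6 kb were covered in the Kdm6b-cKO libraries, against 29.5 and 12.8 kb in the WT libraries.

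Mest, which encodes a hydrolase-like protein, was unmarked at the gene's 5′ end. At its start 8.42 kb downstream, 2494 and 1439 bp were covered in the Kdm6b-cKO libraries, against 297 and 0 bp in the WT libraries. The Mest starts 9.91 and 9.96 kb downstream were marked in WT replicate 7 too, with 637 bp, beside both Kdm6b-cKO libraries. At its starts near 14.5 kb, WT replicate 7 had 253 to 258 bp and every other library 0 bp. Copg2, a coat protein gene that overlaps the end of Mest, had an unmarked promoter, and 8.01 and 9.04 kb were covered within 25 kb in the Kdm6b-cKO libraries against 3.93 and 2.55 kb in the WT libraries (adjusted p = 0.060). Nnat (neuronatin) was unmarked as well, with 8.69 and 8.85 kb within 25 kb in the Kdm6b-cKO libraries, against 8.26 and 5.13 kb in the WT libraries. Trappc9, a vesicle transport gene, varied more within than between genotypes, with 18.4% and 1.02% of its promoter covered in the Kdm6b-cKO libraries, against 22.5% and 0.917% in the WT libraries. Peg3 and Zim1, both zinc finger genes, Usp29, a ubiquitin protease gene, Impact, Nap1l5 and Zrsr1 had no peak within 25 kb in any library. With the genes named above, 15 of the 43 had no such peak.

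Several imprinted genes use separate starts, and 38 of the 43 have more than 1 distinct annotated start. In 6 genes, namely Calcr, Gnas, Grb10, Ins2, Plagl1 and Zdbf2, some starts were marked in all 4 libraries and others in none. Plagl1 was marked at its 5′ end only, while the other 10 starts, 30.2 to 55.9 kb downstream, had 0 bp in every library. Gnas, which encodes the stimulatory G protein alpha subunit and other proteins from upstream starts, was marked in all libraries at 4 starts up to 13.5 kb from its 5′ end. At that end 16.1% and 42.1% were covered in the Kdm6b-cKO libraries, against 13.2% and 18.98% in the WT libraries. The other 12 Gnas starts, from 43.3 kb onward, had 0 bp. Grb10 was marked at 5 starts up to 12.4 kb from its 5′ end and bare at 4 starts from 68.0 kb onward. The split between covered and bare starts of these 3 genes was the same in both genotypes.

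**Figure D5:**
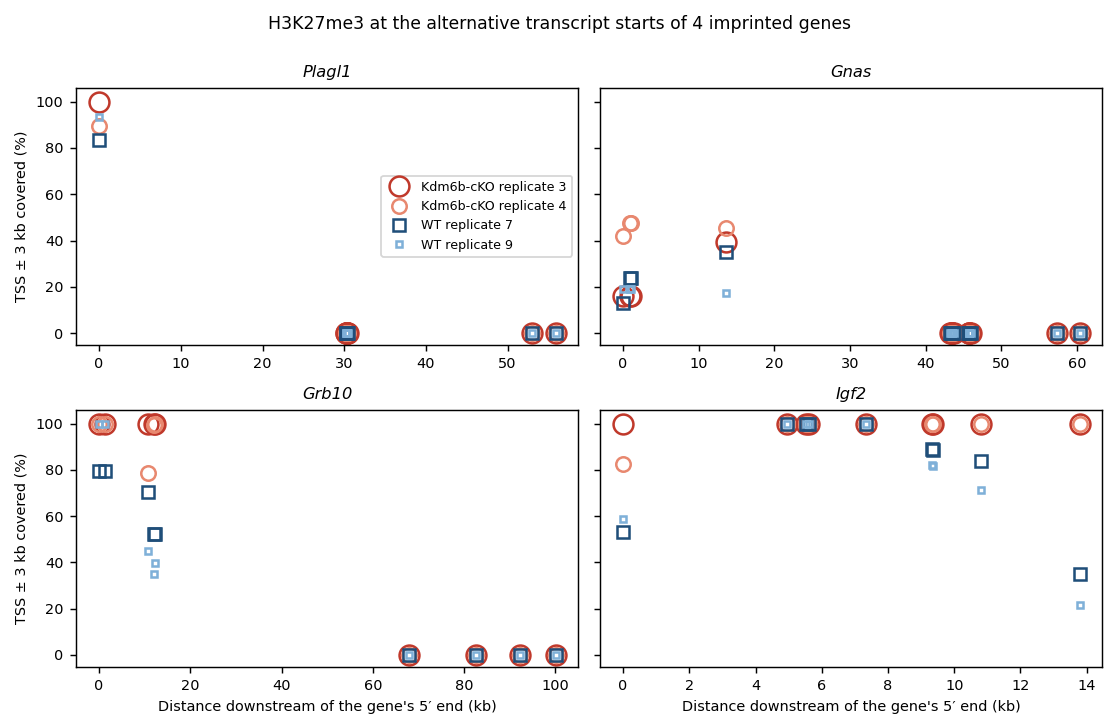
Percent of TSS ± 3 kb covered by H3K27me3 peaks at each distinct annotated start of Plagl1, Gnas, Grb10 and Igf2, against the distance in kb downstream of the gene's 5′ end. Circles are Kdm6b-cKO and squares WT libraries, drawn at different sizes so that equal values stay visible. Starts far downstream stand at 0% in every library for Plagl1, Gnas and Grb10, and all 9 Igf2 starts are covered.

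By expressed copy, 9 of the 18 maternally expressed genes had a marked promoter, with 5 marked in all libraries and 2 in Kdm6b-cKO only. Of the 21 paternally expressed genes 7 had one, with 5 marked in all libraries and 1 in WT only. Over all protein-coding genes 28.8% of promoters were marked. Of those marked promoters, 52.7% were marked in all 4 libraries, 14.9% in both Kdm6b-cKO only and 0.240% in both WT only. Merged 25 kb windows of the maternally expressed genes held 197.6 and 175.5 kb in the Kdm6b-cKO libraries, against 126.8 and 79.7 kb in the WT libraries, a ratio of means of 1.81. Those of the paternally expressed genes held 157.0 and 154.3 kb in the Kdm6b-cKO libraries, against 132.7 and 113.3 kb in the WT libraries, a ratio of 1.27. Over the windows of all protein-coding genes the ratio was 1.64. At equal covered length these ratios were 1.22 for the maternally and 1.06 for the paternally expressed genes, beside 1.08 for all protein-coding genes. The largest wide differences of maternally expressed genes lay in the Kcnq1 and Igf2r domains, up to 20.2 kb at Slc22a18. Outside these domains they ran from −0.91 kb at Ppp1r9a to 5.28 kb at Copg2. Of the 3 genes called higher within 25 kb, Dlk1 and Igf2 are paternally and Cdkn1c is maternally expressed. Of the 5 with a lower mean there, Zdbf2, Mkrn3 and Magel2, whose groups did not overlap, are paternally expressed. The Magel2 difference was only −0.396 ± 0.645 kb (SE, limma), and its window shares 6.87 kb with that of Mkrn3. The groups of Ins2, paternally expressed, and Ppp1r9a, maternally expressed, overlapped. The Ins2 window lies at its far 5′ end. At its cluster of 7 starts downstream the order was the other way, with up to 4318 and 5218 bp in the Kdm6b-cKO libraries, against 1151 and 754 bp in the WT libraries. The difference between the ratios was not tested, and the genes of a domain share windows. The expressed copy of each gene was taken from textbook knowledge and was not measured in these cells, where it may differ.

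Over the merged 25 kb windows of all 43 genes, 1890 kb in all, peaks covered 384.6 and 355.9 kb in the Kdm6b-cKO libraries, against 280.3 and 211.0 kb in the WT libraries. The means were 370.2 ± 20.2 and 245.6 ± 49.0 kb (SD, n = 2 each), a ratio of 1.51. The groups did not overlap, and the two-sided exact permutation test gave p = 0.33, the smallest that 6 arrangements allow. The same ratio was 1.64 over the windows of all protein-coding genes. The imprinted windows took up 0.259% and 0.287% of all covered length in the Kdm6b-cKO libraries, against 0.307% and 0.343% in the WT libraries. The share of the windows of all protein-coding genes was lower in Kdm6b-cKO too. It was 55.6% and 58.0% in the Kdm6b-cKO libraries, against 60.4% and 63.7% in the WT libraries. When each library kept its strongest peaks up to the same covered length, the difference between the groups over these windows was 13.1 kb, against 125 kb with all peaks.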

How the data were processed

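H3K27me3 ChIP-seq was analysed from 4 lists of broad peaks, 2 from Kdm6b-cKO and 2 from WT cultured dermal fibroblasts, and the input was not used here. Chromatin was digested with an enzymatic kit, and the tools in the submitters' processing notes are Bowtie2 2.3.5.1 and bcl2fastq, deepTools 3.5.1, SAMtools 1.9 and MACS2 2.2.7.1, with the build mm10. Per the study's methods, reads were subsampled to a like depth and broad peaks were called in each library with a q cutoff. Whether peak calling used the input, and whether a spike-in was added, is not given in the sources used. Fold ratio, score, −log10 p and −log10 q are deposited values of the authors' peak caller, averaged over a broad peak. The deposited −log10 q was used to rank or filter peaks, and the deposited fold ratio, score and −log10 p entered no result. No list holds read counts, so no counting interval could be given.

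Groups were read from the sample titles, and no replicate number occurs in both. The genes were matched by symbol to GENCODE M21, and covered length was taken in TSS ± 3 kb and TSS ± 25 kb after merging overlapping peaks. The percent and kb covered were compared with limma 3.58.1 (R 4.3.3, lmFit and eBayes) over all genes with at least 500 bp covered in at least 1 library, adjusted by Benjamini-Hochberg and called at 0.05. Covered shares are bounded and often equal within a group, which limits the fit. A gene's position among all differences was counted from the lowest. Merged windows were compared with an exact permutation test over 6 arrangements. Promoter sequence came from RefSeq (GRCm38.p6) for 35 of the 43 genes. All 43 genes are named, those with a marked promoter with each library's value. The 6 sequences were taken from genes with a large difference, with full coverage or without the mark. Alternatives were other peak sets, windows, filters, marking thresholds, starts, centring and leaving out each library. The interval and limma steps were tested on simulated data. The list of genes, the domains, the expressed copies and the other lists were chosen with earlier results of these data known. Python 3.11.15, numpy 2.4.6, pandas 2.3.3 and matplotlib 3.10.9 were used.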

Additional observations from a re-analysis of the deposited data

How the results depend on the processing

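With the strongest peaks up to an equal covered length per library, 133 promoters of all genes were called higher and 78 lower, 0 imprinted promoters lower, 0 imprinted wide windows higher, and 0 imprinted promoters were marked in both Kdm6b-cKO only or in both WT only. The gap over the merged imprinted windows was then 13.1 kb. That setting reversed Magel2 at the promoter (−4.19 points) and, within 25 kb, Grb10 (−10.5 kb), Slc22a2 (−6.37 kb), Tspan32 (−0.56 kb), Copg2 (−2.45 kb) and Nnat (−6.30 kb). It kept all peaks of WT replicate 9 and only the strongest of the other libraries, so these signs compare peaks held to unlike thresholds. Centring gave 58 promoters lower, 0 imprinted promoters higher, and 7 imprinted wide windows higher and 3 lower. It reversed Asb4 at the promoter (−2.15 points) and, within 25 kb, Tssc4 (−0.80 kb), Mest (−1.25 kb), Nnat (−1.98 kb) and Plagl1 (−0.20 kb). Centring takes the same amount off every gene's difference, 17.2 points at the promoter and 4.06 kb within 25 kb. These signs are therefore relative to the mean of all genes tested. With an equal number of peaks, 16 promoters of all genes were lower, 0 imprinted promoters higher and 1 marked in both Kdm6b-cKO only. Without a filter, 151 promoters of all genes were higher and 1 lower, and 0 imprinted genes passed at either width. At TSS ± 5 kb, 1 promoter of all genes was lower, and 2 imprinted promoters were higher (Dlk1 and Cdkn1c), 0 lower, 1 marked in both Kdm6b-cKO only and 0 in both WT only. At TSS ± 1 kb, Slc22a18 was called higher (adjusted p = 0.017), 0 imprinted promoters lower and 0 marked in both WT only. A minimum of 1500 bp gave 5 imprinted wide calls. Peaks of −log10 q of at least 3 called Cdkn1c higher at the promoter in place of Dlk1, and Igf2 and Tspan32 within 25 kb; an equal number of peaks called Igf2, Tspan32 and Ascl2 there. Marking by 1 bp, or at any annotated start, left 1 promoter in both Kdm6b-cKO only.

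Leaving out each library in turn moved the calls over all promoters between 0 and 1355 higher and between 0 and 62 lower. Imprinted promoters called higher ranged from 0 to 2 and lower from 0 to 1, wide calls from 0 to 9, promoters marked in both Kdm6b-cKO only from 2 to 3, and the gap over merged windows from 89.9 to 159 kb. A lone library was then assumed to vary like the other group. The cause of these shifts was not tested. The 12 imprinted promoters marked in all 4 libraries became 9 to 14 under the alternatives. No paired analysis was possible because the groups share no replicate number. With 2 libraries a genotype and peak lists without read counts, a bare promoter means no peak called there.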

Other observations

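Imprinted genes outside the 43 were read in the same way, from lists of 22 protein-coding and 10 noncoding names chosen with earlier results of these data known. GENCODE M21 annotates Zfp264 of the first list as a pseudogene. Of the 22, 10 had a marked promoter, beside 28.8% of all protein-coding promoters. Of these 10, 5 were marked in all 4 libraries, beside 52.7% of all promoters marked anywhere. Another 3 were marked in both Kdm6b-cKO libraries only (Osbpl5, Th and Begain), beside 14.9%. Th, the tyrosine hydroxylase gene beside Ins2, had 59.2% and 32.1% of its promoter covered in the Kdm6b-cKO libraries, against 0% in both WT libraries. Its gene body was covered over 83.1% and 73.5% in the Kdm6b-cKO libraries, against 22.4% and 18.5% in the WT libraries. Begain, near Dlk1, had 54.4% and 55.5% of its promoter covered in the Kdm6b-cKO libraries, against 0% in both WT libraries. Gatm, a creatine synthesis gene, had 77.4% and 69.0% covered in the Kdm6b-cKO libraries, against 31.3% and 18.2% in the WT libraries. Kcnq1, the potassium channel gene that names its domain, had a promoter covered over 100% in every library, as did Rasgrf1. Klf14 had 100% and 97.2% covered in the Kdm6b-cKO libraries, against 83.5% and 75.9% in the WT libraries. Kcnk9 had 89.1% and 90.8% covered in the Kdm6b-cKO libraries, against 88.7% and 87.1% in the WT libraries.

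The noncoding genes were mostly bare at their own starts. Of the 10, 1 promoter was marked, that of Igf2os, covered over 100% in every library, and Igf2os lies antisense to Igf2 so their peaks cannot be told apart. H19, the maternally expressed RNA next to Igf2, had 0% and 7.12% of its promoter covered in the Kdm6b-cKO libraries, against 0% in both WT libraries. Within 25 kb of H19, however, 22.05 and 26.6 kb were covered in the Kdm6b-cKO libraries, against 2.93 and 1.77 kb in the WT libraries, values without a test. The promoters of Kcnq1ot1 and Airn, the noncoding RNAs of the Kcnq1 and Igf2r domains, had no peak within 25 kb in any library, while Ascl2, Phlda2 and Slc22a3 in the same domains were marked in all 4.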
